A study of Mus musculus with 2 samples.

Results

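The genes described here are 9 kinases of the JNK, p38 and ERK cascades, Map3k1, Map3k5, Map3k7, Map2k4, Map2k7, Mapk8, Mapk9, Mapk14 and Mapk3, followed across the cell types of mouse bone marrow. They were chosen by symbol: each is 1 row among the 32285 genes that both count tables hold. The data are 2 droplet-based 3′ single-cell RNA libraries, 1 labelled control (Ctrl) and 1 labelled Map4k4-cKO (cKO), from marrow of mice 13 to 14 weeks old. For each library, 2 parts of c-Kit-positive progenitors were mixed with 3 parts of whole marrow, so the shares of cell types are set by that mixing. The methods describe cKO mice as Mx1-Cre Map4k4 f/f, with the floxed alleles of the kinase gene Map4k4 deleted some weeks earlier by injections of poly I:C, an interferon inducer that switches on the interferon-responsive Mx1-Cre in blood stem and progenitor cells. The control littermates are written as Mx1-Cre Map4k4 -/-, so both groups carry Mx1-Cre. Read literally, -/- would be a null genotype, but the paper's account of its single-cell data calls the control cells wildtype. The -/- notation is not explained in these sources, and the sample label gives the genotype only as control. Whether controls also had poly I:C, and how many mice went into a library, is not given in the sources used here.

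Mitogen-activated protein kinase cascades pass a signal through 3 tiers of kinases, each activating the next by phosphorylation. Map3k1 (MEKK1), Map3k5 (ASK1, which responds to oxidative stress) and Map3k7 (TAK1, which acts below cytokine and Toll-like receptors) stand at the top, Map2k4 (MKK4) and Map2k7 (MKK7) in the middle, and Mapk8 (JNK1), Mapk9 (JNK2), Mapk14 (p38α) and Mapk3 (ERK1) at the bottom. Map2k7 is selective for JNK, while Map2k4 can activate both JNK and p38. In neutrophils, p38 and ERK signalling is known for its part in chemotaxis, degranulation and the oxidative burst, and Map4k4 is a kinase placed above the first tier of the JNK branch.

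The activation loop of the last tier shows how the branches differ. It is the stretch of the kinase in which a threonine and a tyrosine, separated by 1 residue, are phosphorylated by the middle tier. The 30 coding bases around that motif were read from GENCODE vM21 transcripts on GRCm38 for the 4 bottom-tier members and for Mapk13 (p38δ), a paralogue of Mapk14 whose level is compared with it further on. Capitals mark the codons of the threonine, the middle residue and the tyrosine.
Mapk8: agttttatgatgACGCCTTATgtggtgact
Mapk9: aactttatgatgACTCCCTATgtggtaact
Mapk14: gatgatgagatgACAGGCTACgtggctacc
Mapk13: gacactgagatgACGGGCTATgtggtgacc
Mapk3: actggctttctgACGGAGTATgtggccaca
The middle codon encodes proline in both JNK genes, glycine in both p38 genes and glutamate in Mapk3. Mapk8 and Mapk9 shared 25 of the 30 bases, and Mapk14 and Mapk13 shared 23. Each window lies within 1 coding exon: for Mapk8 exon 6 of 12 (chr14:33392994-33393023, minus strand), for Mapk9 exon 6 of 12 (chr11:49872818-49872847, plus strand), for Mapk14 exon 7 of 12 (chr17:28728387-28728416, plus strand) and for Mapk3 exon 4 of 9 (chr7:126763446-126763475, plus strand). The window of Mapk13 (chr17:28776332-28776361) lies on the plus strand.

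All 9 members are protein-coding genes of that annotation, on GRCm38, the build the authors used. Map3k1 lies at chr13:111746428-111808993 on the minus strand, Map3k5 at chr10:19934472-20142753 and Map3k7 at chr4:31964097-32023467. Map2k4 lies at chr11:65688243-65788297 on the minus strand and Map2k7 at chr8:4238740-4247897. Mapk8 lies at chr14:33377898-33447158 on the minus strand, Mapk9 at chr11:49846751-49886421, Mapk14 at chr17:28691329-28748406 and Mapk3 at chr7:126759601-126765819. Where no strand is named it is plus. The annotated gene Gm49320 runs over the last 2000 bases of Map2k7 on the same strand. Mapk13 begins 20.9 kb beyond the end of Mapk14, with 0 protein-coding genes between them. In the last 500 bases of each member's longest coding transcript, where most 3′ reads would fall, 0 of the 470 words of 31 bases occur in a transcript of another gene.

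After filtering, the Ctrl library held 9965 cells and 71282090 UMIs and the cKO library 6718 cells and 64241692 UMIs. A UMI (unique molecular identifier) counts 1 captured RNA molecule, and levels are given as UMIs summed over the cells of a type per 1000000 UMIs of those cells (CPM). Cells were sorted in silico into 9 main types by marker genes that include no member. They were HSC/MPP-like (stem and multipotent progenitor), GMP-like (granulocyte-monocyte progenitor), MEP-like (erythroid progenitor, named after the paper's megakaryocyte-erythroid type) and ProMon-like (monocyte lineage). The other 5 were neutrophil stages, from ProNeu-like over PreNeu-like, imNeu-like and imNeu/mNeu-like to mNeu-like. The 9 types held 392 to 1738 cells in Ctrl and 91 to 1270 in cKO. All 45 marker and type pairs that the sorting did not use were above the median of the other types in both libraries. HSC/MPP-like cells had 1 such marker (Sox4), and GMP-like and MEP-like cells had 2 each. The 13 of imNeu/mNeu-like cells repeat those of imNeu-like and mNeu-like cells. HSC/MPP-like cells were led by Mecom, Angpt1, Hlf and Meis1, and GMP-like cells by Serpinf1 and Cd34 together with Prg2, an eosinophil granule gene. Mecom, Angpt1, Hlf, Meis1 and Cd34 were themselves sorting markers, so their lead follows from the sorting and is no check of it. Leading genes of HSC/MPP-like cells that the sorting did not use included Ctla2a, Myct1 and Dntt. MEP-like cells were sorted by erythroid genes such as Gata1, Klf1 and Epor. They were led by Car1, Ermap and Klf1, which were sorting markers too, and by Mt2 and Sphk1, which were not. Cells rich in megakaryocyte markers formed a smaller type of their own. Cells of no type made up 12.4% of Ctrl and 27.0% of cKO, with medians of 979 and 909 UMIs per cell. The neutrophil granule and maturation markers used for sorting made up 0.342% of the UMIs of MEP-like cells in Ctrl and 0.224% in cKO, against 4.61% and 5.32% in ProNeu-like cells. The libraries share 3010 cell barcodes; of 1964 that fell in a main type in both, 13.6% had the same type, against 14.9% over all pairs of cells.

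There is 1 library per condition, so no p-value was computed, and differences are given with 95% exact intervals that cover counting error only. Map4k4 itself separated the libraries little, at 72.6 CPM in Ctrl and 64.3 CPM in cKO over all kept cells. In HSC/MPP-like cells it was at 135 CPM in both libraries. In ProNeu-like cells it was higher in the library labelled cKO (17.7 against 10.0 CPM), and in imNeu/mNeu-like cells lower (141 against 214 CPM). Counts from the 3′ end do not test the deletion of exons that lie further upstream, and the position of the floxed exons is not given in the sources used here. Every direction between the libraries therefore rests on their labels, which these counts do not check. The paper itself reports, from RT-PCR, that stem and progenitor cells lost the Map4k4 transcript after poly I:C, a measurement made apart from these counts.

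**Figure D1:**
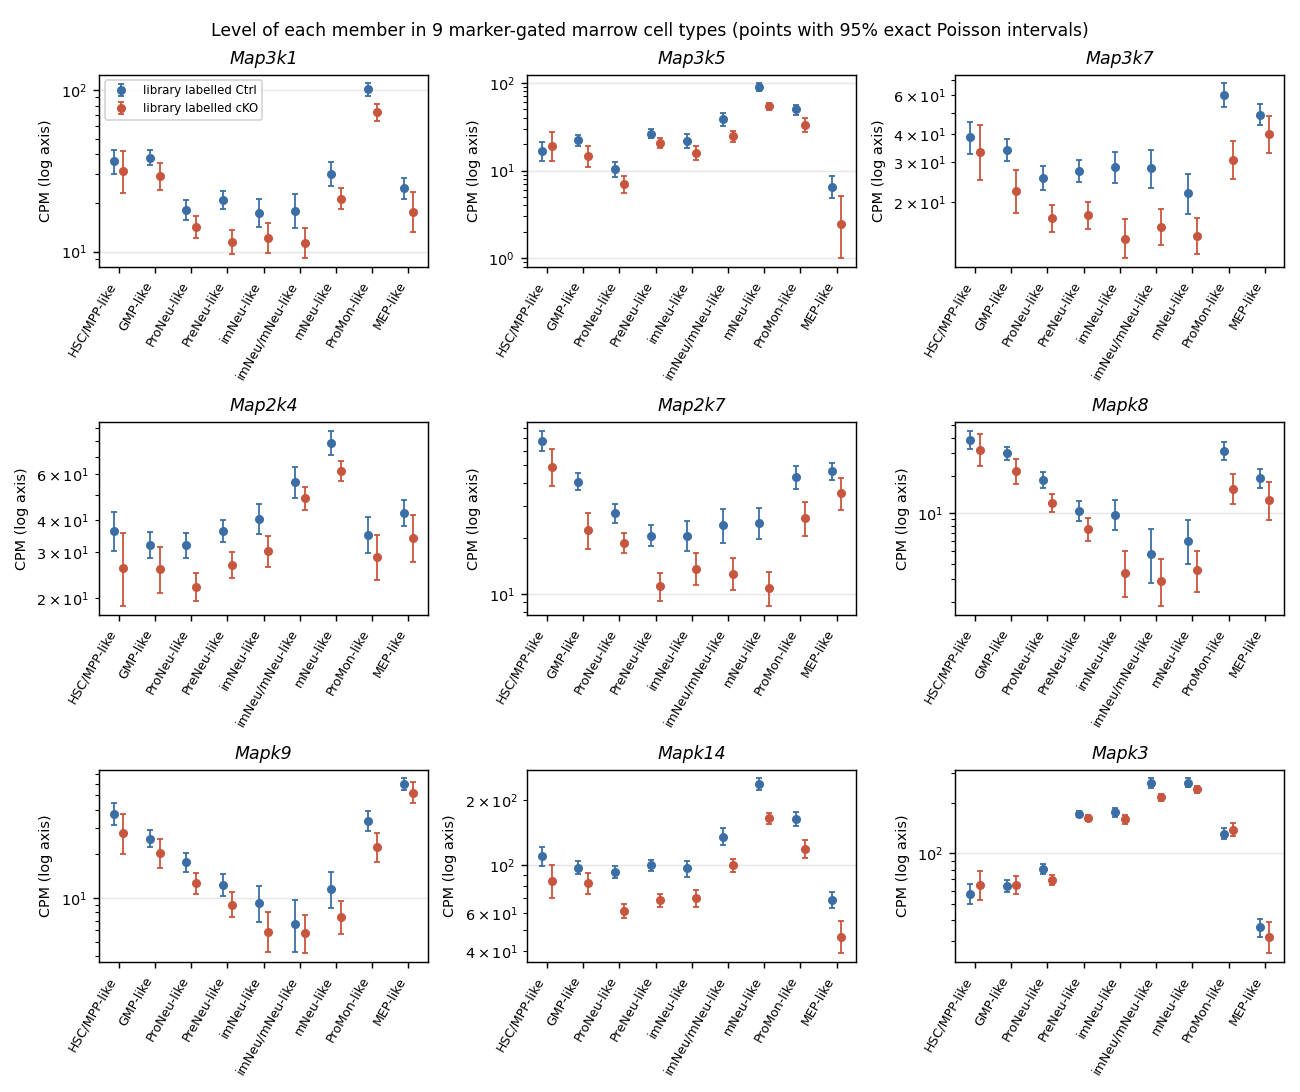
Level of each of the 9 kinases (CPM, log axis, each panel with its own scale) in the 9 main marker-sorted types of the Ctrl (blue) and cKO (red) libraries, with bars for 95% exact Poisson intervals. Map3k5, Map2k4, Mapk14 and Mapk3 have their highest points in mNeu-like cells of both libraries, while Map2k7 and Mapk8 have theirs in HSC/MPP-like cells.

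Among the top-tier kinases, Map3k5 varied most. Its level in mNeu-like cells was 89.3 CPM in Ctrl (95% exact Poisson interval 80.7 to 98.6) and 53.7 CPM in cKO (48.8 to 59.0). In MEP-like cells it was 6.53 CPM (4.81 to 8.65) and 2.48 CPM (0.999 to 5.12). The highest type was thus 13.7-fold over the lowest in Ctrl and 21.7-fold in cKO, the latter resting on 7 UMIs. ProMon-like cells came second in both libraries, at 49.6 and 33.4 CPM, and ProNeu-like cells were second to last, at 10.3 and 7.02 CPM. The intervals of neighbours in that order overlapped for 5 of 8 pairs in each library, none of them between mNeu-like and ProMon-like cells.

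Map3k1 was highest in ProMon-like cells of both libraries, at 101 CPM in Ctrl (91.5 to 110) and 72.7 CPM in cKO (64.1 to 82.2). All 8 other main types lay far below, from 17.4 to 38.1 CPM in Ctrl and from 11.3 to 31.4 CPM in cKO, and all 7 of their neighbouring pairs overlapped in either library. Outside the main types, B lineage-like cells of Ctrl reached 135 CPM (121 to 149; 700 cells), above the interval of ProMon-like cells. The cKO library held 18 such cells and is given no comparison there.

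Map3k7 varied least of the top tier, by 2.75-fold across the types of Ctrl and 2.93-fold in cKO. It was highest in ProMon-like cells of Ctrl (59.9 CPM) and in MEP-like cells of cKO (40.1 CPM), and intervals overlapped for 8 of 8 neighbouring pairs in both libraries. Its lowest values were 21.8 CPM in mNeu-like cells of Ctrl and 13.7 CPM in imNeu-like cells of cKO.

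The middle-tier kinases peaked in different types. Map2k4 was highest in mNeu-like cells, at 79.2 CPM in Ctrl (71.1 to 87.9) and 61.7 CPM in cKO (56.4 to 67.3), and lowest in ProNeu-like cells, at 31.9 and 22.1 CPM. Map2k7 was highest in HSC/MPP-like cells, at 67.9 CPM in Ctrl (59.9 to 76.8) and 49.1 CPM in cKO (38.6 to 61.5), and stood at 24.3 and 10.7 CPM in mNeu-like cells. For both genes most neighbouring types overlapped, 6 of 8 pairs for Map2k4 in each library and 6 and 8 of 8 for Map2k7.

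Of the bottom tier, the JNK genes were highest outside the neutrophil stages. Mapk8 stood at 38.5 CPM in HSC/MPP-like cells of Ctrl and 32.1 CPM in those of cKO, and its lowest values, in imNeu/mNeu-like cells, were 4.75 and 2.93 CPM (18 and 23 UMIs). Mapk9 was highest in MEP-like cells, at 59.5 CPM in Ctrl (54.1 to 65.4) and 52.2 CPM in cKO (44.1 to 61.3), and lowest in imNeu/mNeu-like cells as well, at 6.59 and 5.72 CPM. Both thus fall among the 5 members, with Map3k1, Map3k5 and Mapk3, whose level spanned 4-fold or more over the types of both libraries.

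Mapk14 and Mapk3 were instead highest at the mature end of the neutrophil lineage. Mapk14 was highest in mNeu-like cells, at 238 CPM in Ctrl (224 to 253) and 165 CPM in cKO (156 to 174), followed by ProMon-like cells at 163 and 119 CPM, and lowest in MEP-like cells, at 68.9 and 46.5 CPM. Mapk3 was at 263 CPM (248 to 279) and 240 CPM (229 to 251) in mNeu-like cells and at 36.2 and 31.6 CPM in MEP-like cells. In Ctrl, Mapk3 in mNeu-like and imNeu/mNeu-like cells, 263 and 262 CPM, did not differ beyond counting error. The order of types was similar in both libraries, where the correlation of log2 CPM between libraries over the 9 types ran from 0.876 for Map3k7 to 0.990 for Mapk3, as a description of 9 points sorted by the same markers.

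Among smaller types measured in Ctrl, Mapk14 was at 122 CPM in macrophage-like cells (75.7 to 187; 118 cells), 112 CPM in megakaryocyte-like cells (92.1 to 136; 58 cells) and 16.2 CPM in plasma-like cells (8.10 to 29.0; 69 cells). Mapk9 was at 43.0 CPM in megakaryocyte-like cells and 10.3 CPM in plasma-like cells. Map3k5 was at 2.07 CPM in ProEry-like cells (erythroid, sorted by genes such as Alas2 and Slc4a1), which rests on 1 UMI in 96 cells. In B lineage-like cells it was at 45.9 CPM. Plasma-like cells had the lowest Ctrl level of Mapk8, at 2.95 CPM from 2 UMIs. Each of these types held under 50 cells in cKO.

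Early and mature neutrophils were compared next. Of the 9 members, 4 were at least 2-fold higher in mNeu-like than in ProNeu-like cells of both libraries (Map3k5, Map2k4, Mapk14 and Mapk3), where 15.8% of all 10596 genes with at least 20 UMIs in each library were higher. Only Mapk8 was at least 2-fold lower in both, where 46.7% of all genes were lower. The members' median log2 ratio was 0.66, against -1.04 over all genes.

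Map3k5 was at 10.3 CPM in ProNeu-like and 89.3 CPM in mNeu-like cells of Ctrl, and at 7.02 and 53.7 CPM in cKO. Its log2 ratio was 3.11 (95% exact binomial interval 2.80 to 3.44) and 2.94 (2.60 to 3.29). Mapk3 went from 80.7 to 263 CPM and from 69.2 to 240 CPM, a log2 ratio of 1.71 (1.58 to 1.84) and 1.79 (1.68 to 1.91). The intervals of the ratio did not reach 0 for these genes, nor for the next pair.

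Mapk14 went from 92.9 to 238 CPM in Ctrl and from 61.3 to 165 CPM in cKO, with log2 ratios of 1.36 (1.23 to 1.48) and 1.42 (1.29 to 1.56). Map2k4, which can activate both JNK and p38, went from 31.9 to 79.2 CPM and from 22.1 to 61.7 CPM. Its log2 ratios were 1.31 (1.09 to 1.53) and 1.48 (1.26 to 1.70). Mapk8, the JNK1 gene, went the other way, from 18.5 to 6.07 CPM and from 12.2 to 3.53 CPM, with log2 ratios of -1.61 (-2.25 to -1.02) and -1.79 (-2.42 to -1.21). Of the remaining members, Map3k1 was higher by less than 2-fold (0.75 and 0.58) and Mapk9 lower by less than 2-fold (-0.61 and -0.77), with intervals that did not reach 0. The intervals of Map3k7 reached 0 in both libraries and that of Map2k7 in Ctrl. With ratios centred on the median gene, which lies so far below 0 here, 5 members were higher (Map3k1 in addition) and 0 lower. The share of all genes called under that centring is not given here. The ratios of Mapk9 then changed sign, to 0.26 in Ctrl and 0.41 in cKO. So did those of Map3k7 (0.64 and 0.92) and Map2k7 (0.70 and 0.36), and only Mapk8 stayed below 0 (-0.73 and -0.61).

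These ratios are shares of a cell's RNA, not amounts per cell. mNeu-like cells held far fewer UMIs than ProNeu-like cells, on average 2557 against 15280 in Ctrl and 6463 against 21046 in cKO. In UMIs per cell, Map3k5 was still higher in mNeu-like cells (0.228 against 0.158 in Ctrl and 0.347 against 0.148 in cKO). Mapk14 was lower (0.608 against 1.42 and 1.06 against 1.29), and so was Map2k4 (0.203 against 0.487 and 0.398 against 0.466). Mapk3 was lower in Ctrl (0.673 against 1.23) and close in cKO (1.55 against 1.46). Less RNA per cell and a lower capture rate cannot be told apart in these counts.

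**Figure D2:**
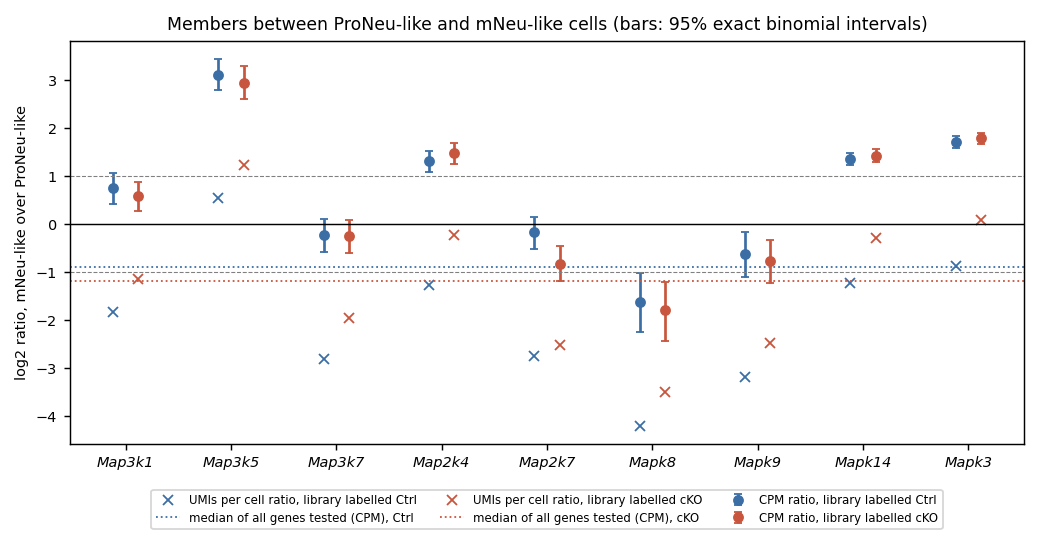
Log2 ratio of mNeu-like over ProNeu-like cells for each member in the Ctrl (blue) and cKO (red) libraries; circles are CPM ratios with 95% exact binomial intervals, crosses are ratios of UMIs per cell, dotted lines the median CPM ratio of all genes tested and dashed lines a 2-fold difference. Circles of Map3k5, Map2k4, Mapk14 and Mapk3 lie above the upper dashed line in both libraries and those of Mapk8 below the lower one, while every cross lies below its circle.

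Within the neutrophil lineage the levels were followed in finer steps. Cells from PreNeu-like to mNeu-like were placed in 6 steps by the share of late maturation markers among late maturation and secondary granule marker UMIs. The share ran from 0 to 2.00% in the first step to 90.0 to 100% in the last. Mapk14 went over these steps through 97.3, 109, 136, 172, 231 and 257 CPM in Ctrl, and through 68.9, 76.0, 95.8, 122, 175 and 167 CPM in cKO. Map3k5 went through 24.1, 29.3, 40.9, 43.8, 94.7 and 90.1 CPM in Ctrl, and through 18.1, 20.9, 23.1, 34.2, 45.6 and 63.0 CPM in cKO. In Ctrl the intervals of Map3k5 at the fourth step (32.5 to 57.7) and the fifth (83.2 to 107) did not overlap.

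Map2k4 differed little between the late steps. It was at 34.9 CPM in the first step and 80.6, 77.4 and 75.6 CPM in the last 3 of Ctrl, whose intervals overlap, and at 27.3 CPM and then 67.9, 59.7 and 59.3 CPM in cKO. Mapk3 went from 169 to 270 CPM by the third step of Ctrl and stood at 270 CPM in the last, and went from 159 to 258 CPM by the fifth step of cKO and stood at 224 CPM in the last, where the intervals (240 to 277 and 210 to 239) did not overlap. Malat1, a nuclear RNA, also differed over these steps, at 1274 CPM in the first, 3919 in the fifth and 3239 in the last of Ctrl, and at 629, 2569 and 2562 CPM in cKO; its part in the members' levels was not tested. Map2k7 had no steady direction, between 19.6 and 26.3 CPM in Ctrl and between 8.93 and 14.3 CPM in cKO. Mapk8 rested on 4 to 31 UMIs per step after the first in Ctrl and on 7 to 18 in cKO.

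**Figure D3:**
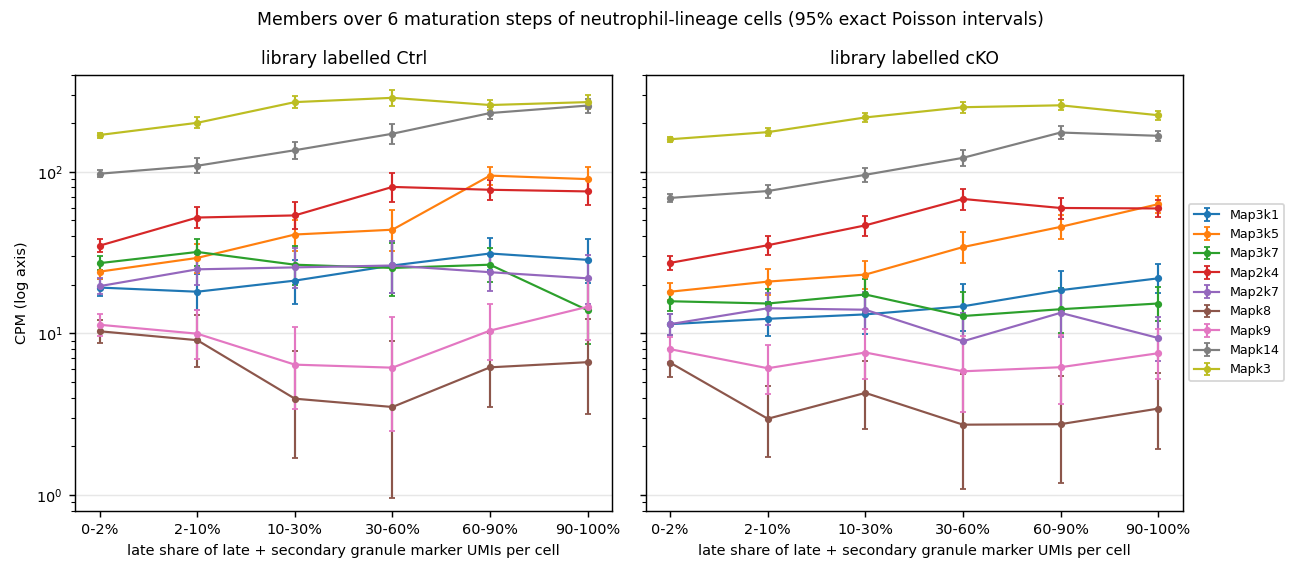
Level of each member (CPM, log axis) over 6 steps of neutrophil maturation in the Ctrl (left) and cKO (right) libraries. The x axis is the share of late maturation marker UMIs among late maturation and secondary granule ones in a cell. Bars are 95% exact Poisson intervals. Mapk14 and Map3k5 are higher in the last step than in the first in both panels (97.3 and 257 CPM for Mapk14 in Ctrl) while Mapk8 is at 10.3 and 6.63 CPM in the first and last steps of Ctrl.

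From HSC/MPP-like to ProNeu-like cells, 0 members were 2-fold higher in both libraries, where 5.64% of 10638 genes were, and 3 were 2-fold lower, where 19.0% were. These were Map2k7, Mapk8 and Mapk9. The 3 top-tier members were lower as well but did not pass the limit in both libraries. Their log2 ratios in Ctrl and cKO were -0.99 and -1.14 for Map3k1, -0.70 and -1.43 for Map3k5, and -0.60 and -0.99 for Map3k7. Map2k4, which can also activate JNK, had ratios of -0.19 and -0.24 with intervals that reached 0. Map2k7 went from 67.9 to 27.4 CPM in Ctrl and from 49.1 to 18.9 CPM in cKO, with log2 ratios of -1.31 (-1.56 to -1.06) and -1.38 (-1.76 to -0.98). Mapk8 went from 38.5 to 18.5 CPM and from 32.1 to 12.2 CPM, and Mapk9 from 37.4 to 17.5 CPM and from 27.5 to 12.6 CPM. Mapk3 was at 57.6 and 80.7 CPM in Ctrl and at 64.8 and 69.2 CPM in cKO. Mapk8 was not called when cells rich in megakaryocyte markers were kept among the HSC/MPP-like cells, which left 2 members lower, and 0 were lower when the ratios were centred on the median gene. The share of all genes under either setting is not given here.

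Between the mature end of the neutrophil and the monocyte lineage, 1 member, Map2k4, was 2-fold higher in mNeu-like than in ProMon-like cells of both libraries, where 9.99% of 9713 genes were, and 4 were lower, where 47.8% were. Map2k4 was at 79.2 CPM in mNeu-like and 35.1 CPM in ProMon-like cells of Ctrl, and at 61.7 and 28.8 CPM in cKO, with log2 ratios of 1.17 (0.90 to 1.45) and 1.10 (0.79 to 1.42). The lower members were Map3k1, Map3k7, Mapk8 and Mapk9. Map3k1 had log2 ratios of -1.73 (-2.01 to -1.45) and -1.77 (-2.06 to -1.49), and Mapk8 of -2.37 (-3.02 to -1.77) and -2.15 (-2.85 to -1.48). With ratios centred on the median gene, 4 members were higher and 0 lower, and the ratio of Map3k7 in cKO changed sign. The ratios of Map2k7 changed sign as well, from -0.82 to 0.17 in Ctrl and from -1.26 to 0.04 in cKO. The share of all genes called under that centring is not given here.

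Shares within a family of paralogues need no scaling between cell types, since both genes are counted in the same cells. Because 3′ counting may capture each gene with its own efficiency, a share is compared between types and not read as the ratio of levels. Among Map2k4 and Map2k7 UMIs, Map2k7 made up 65.1% in HSC/MPP-like cells of Ctrl (95% exact binomial interval 60.2 to 69.8) and 65.2% in cKO (55.8 to 73.9). It made up 46.2% and 46.1% in ProNeu-like cells, 36.3% and 29.0% in PreNeu-like cells, and 23.5% (19.7 to 27.6) and 14.8% (12.1 to 17.9) in mNeu-like cells. In ProMon-like cells it was 55.1% and 47.1%.

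Mapk14 made up most p38 UMIs outside the neutrophil stages, 89.2% in Ctrl and 89.0% in cKO for HSC/MPP-like cells, and 92.5% and 95.6% for GMP-like cells. The share was 88.4% in ProNeu-like cells of Ctrl and 80.4% in cKO, 47.0% and 33.0% in PreNeu-like cells, and 39.2% and 32.5% in imNeu/mNeu-like cells. In mNeu-like cells it was 61.0% (58.7 to 63.3) and 47.2% (45.3 to 49.0). The neighbouring gene Mapk13 stood at 112 CPM in PreNeu-like cells of Ctrl and 139 CPM in those of cKO, and was highest in imNeu/mNeu-like cells, at 209 and 207 CPM. Its log2 ratio of mNeu-like over ProNeu-like cells was 3.65 (3.37 to 3.94) in Ctrl and 3.62 (3.40 to 3.85) in cKO.

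Within the JNK pair, Mapk9 made up 75.8% of UMIs in MEP-like cells of Ctrl (72.1 to 79.2) and 80.3% in cKO (73.8 to 85.8), against 49.3% and 46.2% in the HSC/MPP-like type. The share among mNeu-like cells was 65.4% (53.8 to 75.8) and 67.8% (57.1 to 77.2), on 78 and 90 UMIs. In ProNeu-like cells it was 48.7% and 50.8%.

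**Figure D4:**
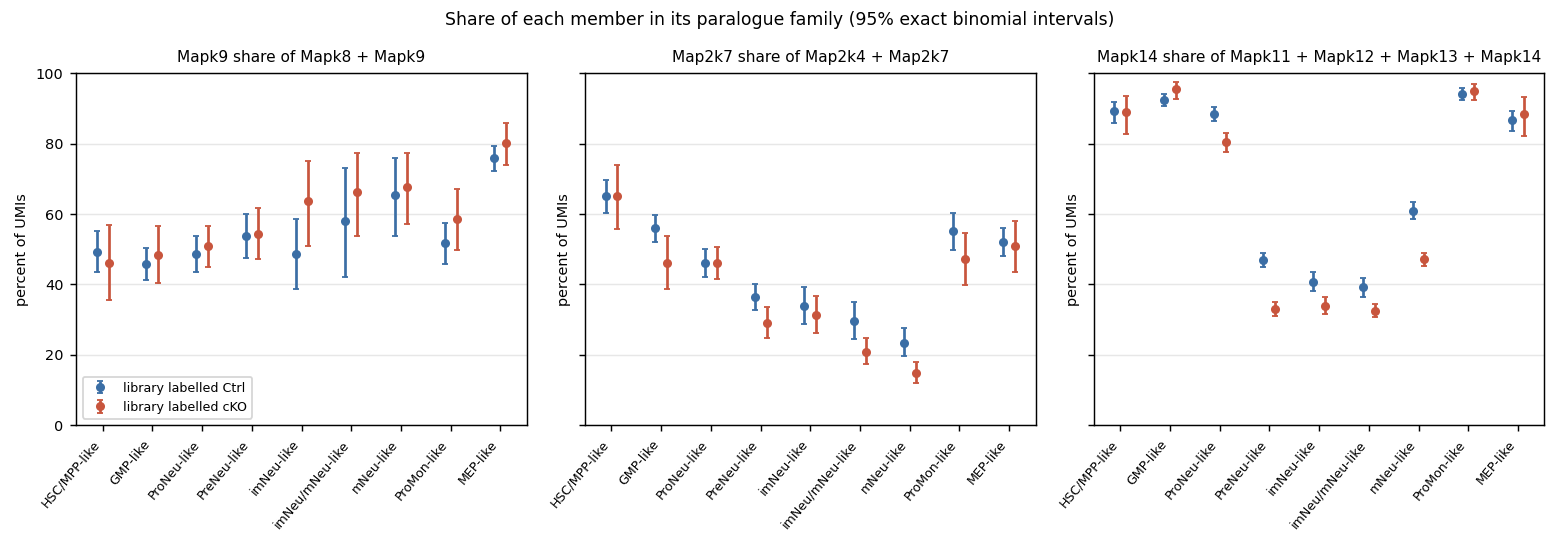
Share of UMIs (percent) of Mapk9 in the JNK pair, Map2k7 in the MKK4 and MKK7 pair and Mapk14 among 4 p38 genes, in the 9 main types of the Ctrl (blue) and cKO (red) libraries with 95% exact binomial intervals. Along the neutrophil stages Map2k7 goes from 46.2 to 23.5% in Ctrl, and Mapk14 has its lowest share (39.2% in Ctrl) in imNeu/mNeu-like cells.

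Other genes of the cascades were taken from a list of 78, of which 55 had enough UMIs between ProNeu-like and mNeu-like cells. Of these, 18 were at least 2-fold higher in mNeu-like cells of both libraries and 6 were lower, beside the 15.8% and 46.7% of all genes. Of the 17 measured genes of the top tier 9 were higher, Braf and Map3k8 among them, and of 8 phosphatases 3 were higher. The largest mean ratios were those of Dusp6, a phosphatase that acts on ERK, with 10.0 and 169 CPM in Ctrl and 4.30 and 85.7 CPM in cKO, of Dusp5, with 0.578 and 9.67 CPM and 0.413 and 7.80 CPM, and of Mapk13. The lowest were those of Map2k6, a p38 activator (4.14 and 0.675 CPM in Ctrl, 3.80 and 0.366 CPM in cKO), Dusp2 (20.8 and 3.82 CPM, 15.4 and 0.731 CPM) and Map3k20 (62.6 and 8.10 CPM, 43.1 and 2.44 CPM). Map2k6 rests on 3 UMIs in mNeu-like cells of either library. Dusp5 rests on 6 UMIs in ProNeu-like cells of Ctrl and 5 in those of cKO, and Dusp2 on 6 in mNeu-like cells of cKO.

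Between ProNeu-like and HSC/MPP-like cells, 3 of 55 measured genes of that list were higher and 11 lower, beside the 5.64% and 19.0% of all genes, and 5 of the latter were phosphatases (Dusp1, Dusp2, Dusp3, Dusp5 and Dusp6). Between mNeu-like and ProMon-like cells, 10 of 57 were higher and 14 lower, beside the 9.99% and 47.8% of all genes.

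Some members had patterns like each other over the 9 types of both libraries (18 points that share libraries and depth, log2(CPM + 1), given as a description). Pearson's r was highest between Map3k5 and Mapk14 (0.920), followed by Map3k7 and Map2k7 (0.872). Map2k7 had 0.850 with Mapk9 and 0.848 with Mapk8, and Map3k7 had 0.833 with Mapk9. The JNK pair Mapk8 and Mapk9 came next (0.828), and then Map3k5 and Mapk3 (0.817). The lowest r was -0.844, between Mapk9 and Mapk3. Among 5582 genes that reached 50 CPM in a type, those most like each of the 5 wide-ranging members were Itgb7 (0.970) and Nek7 (0.952) for Map3k1, and Lrch4 (0.954) and Rassf3 (0.948) for Map3k5. They were B230219D22Rik (0.975) and Qser1 (0.975) for Mapk8, Usp6nl (0.981) and Slc25a51 (0.979) for Mapk9, and Cap1 (0.989) and Dhrs7 (0.984) for Mapk3.

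The last comparison is that between the 2 libraries, which the design sets up to follow the loss of Map4k4. Over all kept cells, 5 of 9 members were at least 1.5-fold lower in the library labelled cKO, where 45.3% of 14406 genes were. They were Map3k1 (35.3 and 19.8 CPM), Map3k7 (34.3 and 19.1 CPM), Map2k7 (35.4 and 17.5 CPM), Mapk8 (19.3 and 9.31 CPM) and Mapk9 (24.2 and 12.9 CPM). Mapk3 was at 119 CPM in Ctrl and 141 CPM in cKO. Sums over all cells also depend on the make-up of each library. HSC/MPP-like cells were 3.93% of kept cells in Ctrl and 1.79% in cKO, GMP-like 5.05% and 1.99%, MEP-like 4.50% and 1.35%, and B lineage-like 7.02% and 0.268%. In the other direction, imNeu/mNeu-like cells were 9.31% and 14.5%, and mNeu-like 17.4% and 18.9%. The part of make-up in these sums was not tested, and the types were also compared one by one.

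Within types, the members were counted beside the share of all genes that passed the same limit. The number at least 1.5-fold lower in cKO was 3 of 9 in ProNeu-like cells (20.4% of all genes), 3 in PreNeu-like (30.5%), 3 in imNeu-like (35.9%), 5 in imNeu/mNeu-like (39.6%) and 5 in mNeu-like cells (44.4%). It was 0 in HSC/MPP-like (14.9%), 3 in GMP-like (13.5%), 4 in ProMon-like (21.7%) and 1 in MEP-like cells (21.5%). In every one of the 9 types 0 members were 1.5-fold higher. Few genes of any kind were, no more than 6.75% in a type (the HSC/MPP-like one), so this count says little about the members. With stricter types the number lower was 1 in ProNeu-like and 2 in MEP-like cells, and with at least 2000 UMIs per cell it was 3 in mNeu-like cells (Map3k7, Map2k7 and Mapk8). The median gene was itself lower in cKO in each type, by log2 values from -0.12 in HSC/MPP-like to -0.51 in mNeu-like cells.

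Map3k7 was lower by 1.5-fold or more in 7 of 9 types, and in 2 of 9 when ratios were centred on the median gene. In ProMon-like cells it was at 59.9 CPM in Ctrl and 30.8 CPM in cKO, a log2 ratio of -0.96 (-1.30 to -0.63), and in imNeu-like cells at 28.6 and 13.7 CPM, a log2 ratio of -1.06 (-1.43 to -0.68). In HSC/MPP-like cells it was at 38.7 and 33.4 CPM, with an interval (-0.70 to 0.25) that reached 0. Map2k7 was lower by 1.5-fold in 5 types, with intervals below 0 in 9 of 9, and furthest in mNeu-like cells, at 24.3 and 10.7 CPM (-1.18, -1.60 to -0.76).

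Mapk8 was lower by 1.5-fold in 5 types, furthest in imNeu-like cells, at 9.76 and 3.36 CPM (54 and 24 UMIs, log2 ratio -1.54, -2.29 to -0.82). Map3k5 was lower by 1.5-fold in 4 types; its largest ratio, -1.39 (-2.78 to -0.24) in MEP-like cells, rests on 48 and 7 UMIs. Mapk14 was below 0 in 9 of 9 types but reached 1.5-fold in 1 of them, ProNeu-like cells, at 92.9 and 61.3 CPM. Mapk3 reached 1.5-fold in 0 types and had ratios from -0.28 to 0.17.

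Other measures also differed between the libraries. Malat1, a nuclear RNA whose share is often read as a sign of cell integrity, was lower in cKO in 9 of 9 types, by log2 values from -1.89 in ProMon-like to -0.54 in mNeu-like cells. Mean UMIs per cell were higher in cKO in each type, in mNeu-like cells 6463 against 2557. Counted as UMIs per cell, Map2k7 in mNeu-like cells was at 0.0621 in Ctrl and 0.0693 in cKO, Mapk14 at 0.608 and 1.06, and Mapk3 at 0.673 and 1.55. When ratios were centred on the median gene of each type, pairs of member and type at least 1.5-fold lower numbered 7 in place of 27 of 81. Under that centring, 6.71% (ProNeu-like) to 19.2% (mNeu-like) of all genes were lower in a type. At that limit Map3k7, Map2k7 and Mapk8 were each lower in 2 types, in place of 7, 5 and 5, and Map3k5 in 1 in place of 4. Map3k7, Map2k7 and Mapk8 were then still below 0 in 9 of 9 types, and Mapk3 was above 0 in 8. Many of these differences lay within counting error. The centred interval of Mapk8 reached 0 in most types, mNeu-like among them (-1.08 to 0.54). Those of Map3k7 and Map2k7 did so in fewer, MEP-like among them (-0.43 to 0.20 and -0.56 to 0.11). For Mapk3 some reached 0 as well. The part of cell integrity and of depth in these ratios was not tested.

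**Figure D5:**
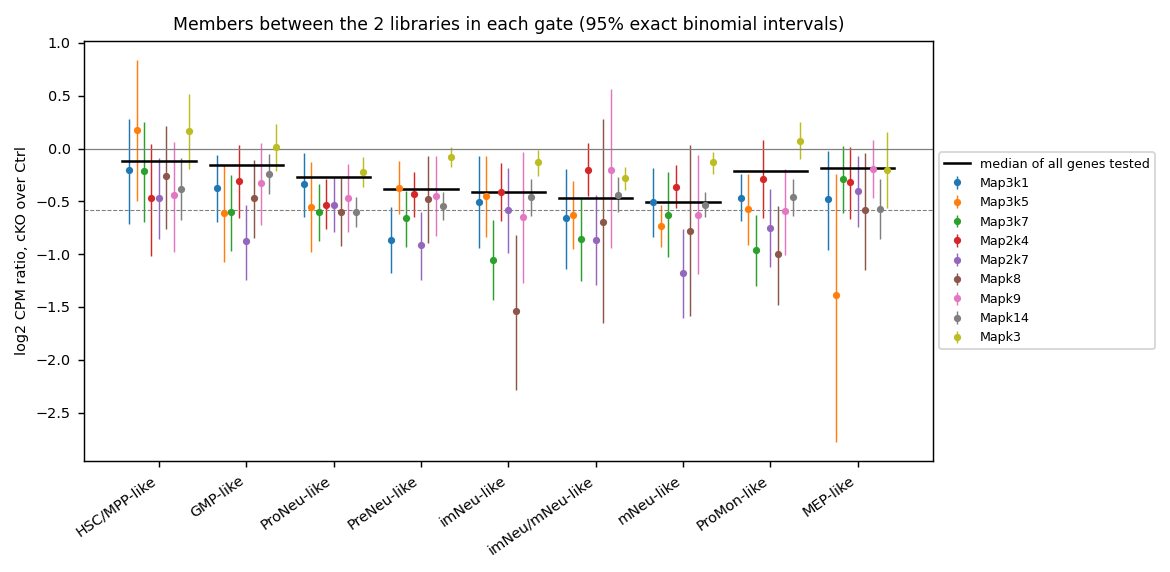
Log2 CPM ratio of the cKO over the Ctrl library for each member (colours) in the 9 main types, with 95% exact binomial intervals; black bars are the median of all genes tested in the type and the dashed line marks 1.5-fold lower. The black bars lie below 0 in every type, from -0.12 to -0.51, and the points of Mapk3 lie above them in 8 of 9 types.

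Other cascade genes with enough UMIs in at least 3 types numbered 61. Of these, 26 were at least 1.5-fold lower in cKO in 3 or more types, where 36.7% of 11069 genes were. In the other direction, 0 were higher in as many, and the matching share of all genes is not given here. With ratios centred on the median gene 5 were lower in as many types, where 11.9% of all genes were. Dusp6 was lower in 8 of 9 types, and Dusp2, Map3k15, Tab3 and Traf6 in 6. Tab3 encodes a partner of the Map3k7 kinase and Traf6 an adaptor that acts above it; over all kept cells Tab3 was at 11.3 CPM in Ctrl and 5.88 CPM in cKO and Traf6 at 16.5 and 9.20 CPM. Map3k10, Map3k12, Spag9 and Taok1 were lower in 5 types, and Dusp1, Map3k20, Map3k9, Mapk13 and Tab2 were among those lower in 4. For Mapk13 these 4 types held 10 to 22 UMIs in cKO, and the intervals reached 0 in 3 of them; over all kept cells it was higher in cKO, at 98.2 against 58.2 CPM (log2 ratio 0.75, 0.70 to 0.81). A further 11, lower in 3 types, were Dusp5, Map2k6, Map3k11, Mapkapk5, Nlk, Ppm1a, Ppm1d, Rps6ka2, Rps6ka5, Tab1 and Taok2. In mNeu-like cells 27 of 56 measured genes of the list were lower, beside the 44.4% of all genes, and their median log2 ratio was -0.56 against -0.51 over all genes. With ratios centred on the median gene, 7 of the 56 were lower and 3 higher, beside 19.2% and 11.8% of all genes.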

How the data were processed

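Whole-number UMI counts per gene and cell were used as the authors deposited them, made per the labels with Cell Ranger 5.0.0 on mm10 from a droplet 3′ protocol; whether intronic reads were counted is not given in the sources used here. A cell was kept if it had between 200 and 9000 genes detected and no more than 30% of its UMIs from mitochondrial genes. No doublet caller was run, and the 39 Ctrl and 4 cKO cells that passed the thresholds of more than 1 type were set aside. Types came from the share of marker UMIs per cell. The thresholds were set after looking at the data, and cells rich in megakaryocyte markers were taken out of the HSC/MPP-like type after its leading genes had been seen. The members and gene lists were chosen with earlier results of these data known.

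UMIs were summed per type and library and divided by the total to give CPM. Intervals were Clopper-Pearson (ratios, shares) or exact Poisson (levels) at 95%. With 1 library per group no test across samples exists, so a gene with at least 20 UMIs was counted as higher or lower at 2-fold between types in both libraries, or at 1.5-fold between libraries. Beyond the members, the text names Map4k4, the paralogues, the 3 highest and 3 lowest called cascade genes between mNeu-like and ProNeu-like cells, cascade genes called in the same direction in at least 3 types between libraries, and the 2 genes most correlated with each member spanning 4-fold; cascade genes named beside other counts, and the leading genes of a type, were chosen after their values were seen. Alternatives were other floors on UMIs per cell, a 10% mitochondrial ceiling, stricter types, a denominator without the most abundant genes, equal weight per cell, median-of-ratios scaling, a 50 UMI minimum and other folds. Some cascade genes are not reported here. The calculations were tested on simulated data. Python 3.11.15, numpy 2.4.6, pandas 2.3.3, scipy 1.17.1 and matplotlib 3.10.9 were used.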

Additional observations from a re-analysis of the deposited data

Results flagged for a closer look

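For a pair of genes the ratio of the library labelled cKO over Ctrl had opposite signs in different cell types, with exact intervals on opposite sides of 0. The difference between types was not tested, since each condition has 1 library. Map4k4, the targeted gene, had a log2 ratio of 0.82 (0.47 to 1.17; 104 and 214 UMIs) in ProNeu-like cells and of -0.60 (-0.74 to -0.47; 813 and 1109 UMIs) in imNeu/mNeu-like cells. Mapk13, the p38δ gene beside Mapk14, had a log2 ratio of 0.31 (0.20 to 0.42) in PreNeu-like cells and 0.29 (0.15 to 0.42) in the mNeu-like type. Its ratio among GMP-like cells was -0.96 (-1.91 to -0.11), which rests on 66 and 14 UMIs.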

How the results depend on the processing

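No paired analysis was possible because each group has 1 library. Floors on UMIs per cell, the 10% mitochondrial ceiling, stricter types and a 50 UMI minimum left the counts between types, the count over all kept cells, the number of pairs lower between libraries and the share differences within 1.5 times or the counting interval. Single types did move: members lower in cKO went from 3 to 1 in ProNeu-like and from 1 to 2 in MEP-like cells with stricter types, and from 5 to 3 in mNeu-like cells with at least 2000 UMIs per cell. Scaling mattered most. With median-of-ratios scaling the members lower in mNeu-like than in ProNeu-like cells numbered 0 in place of 1, those lower in ProNeu-like than in HSC/MPP-like cells 0 in place of 3, those higher in mNeu-like than in ProMon-like cells 4 in place of 1 and those lower 0 in place of 4. Between libraries, 0 members in place of 5 were then lower over all kept cells, beside 16.5% of all genes. Pairs of member and type lower then numbered 7 in place of 27, beside 6.71 to 19.2% of all genes per type. The log2 ratio of Map3k7 between mNeu-like and ProMon-like cells of cKO went from -1.12 to 0.17. Without the most abundant gene classes (346 genes, 43.8% of Ctrl and 50.6% of cKO UMIs), 3 members were higher in mNeu-like than in ProMon-like cells and 14 pairs were lower. At 1.5-fold between types, 2 members were lower in mNeu-like than in ProNeu-like cells, 6 lower in ProNeu-like than in HSC/MPP-like cells and 3 higher in mNeu-like than in ProMon-like cells. At 2-fold between libraries, 2 members were lower over all kept cells and 5 pairs within types. For the counts under other folds or denominators, and under rescaling between types, the matching shares of all genes are not given here. With equal weight per cell, the log2 ratio of Mapk8 between libraries in imNeu/mNeu-like cells went from -0.70 to 0.35, on 18 and 23 UMIs. Cells rich in megakaryocyte markers were taken out of the HSC/MPP-like type after seeing the data; keeping them left 2 members lower in ProNeu-like cells. The causes were not tested. Depth limits Mapk8 most, with 27 UMIs in mNeu-like cells of Ctrl and 29 in those of cKO.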
